A study of Caenorhabditis elegans with 2 samples.

Results

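Small RNA pathways silence genes and viruses in Caenorhabditis elegans, and 10 genes at their core were examined here for RNA polymerase II. The set holds the RNA-dependent RNA polymerase genes ego-1, rrf-1, rrf-2 and rrf-3, the Dicer gene dcr-1 and the Argonaute genes rde-1, alg-1, alg-2, ergo-1 and prg-1. They are 10 of the 19973 protein-coding genes of the nuclear chromosomes in the annotation. The genes were chosen by family with measured values of these data known, in which ego-1 stood high, so their levels are a description and none was tested.

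The study measured where AMA-1, the catalytic core subunit of this polymerase, sits on the genome by chromatin immunoprecipitation followed by sequencing (ChIP-seq). Its only group was whole L1 larvae, the first larval stage, of the wild-type strain N2, with both sexes mixed and an age given as unknown; no other genotype, treatment or stage was used here. There were 2 biological replicates, each with a list of 30000 regions on build ce11, beside a list of 30000 regions from both replicates pooled and a thresholded consensus list of 1328 regions. Each region carries a summit, its highest point, and a signal value in the peak caller's units, which was not put on a common scale between lists. The consensus regions are exactly the 1328 pooled regions of highest signal, from 34.3 upwards. Being in the consensus list therefore restates the pooled value and is not a separate measure of agreement between replicates.

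RNA-dependent RNA polymerases copy RNA, either to make double-stranded RNA for Dicer or to make short interfering RNAs (siRNAs) directly from a target. Dicer cuts double-stranded RNA and microRNA precursors into short pieces. Argonaute proteins hold the short RNA and use its bases to find a target. In the worm, EGO-1 is known for siRNAs of the germline, RRF-1 for the siRNAs that amplify RNA interference in the body, and RRF-3 for endogenous siRNAs made with Dicer and the ERI proteins. RDE-1 takes up siRNAs from double-stranded RNA that enters the animal, ALG-1 and ALG-2 carry microRNAs, ERGO-1 carries endogenous siRNAs and PRG-1 carries the Piwi-interacting RNAs (piRNAs) of the germline.

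The summits of highest pooled signal lay in unlike kinds of sequence, and the stretches below show 1 gap between divergent genes, 1 neighbouring gene and 2 coding exons. All are from the RefSeq genome on build ce11, written on the strand of the gene 5' to 3', with the 11 bases around the summit in capitals. The rrf-3 stretch is the whole gap between the 5' ends of rrf-3 and emb-27, at chrII:8162171-8162464 on the plus strand. The rde-1 stretch, at chrV:9991915-9991995 on the minus strand, lies in the coding sequence of the neighbour trpp-6. Those of alg-1, at chrX:13953994-13954094, and alg-2, at chrII:875162-875262, are both on the plus strand inside coding exons.
rrf-3: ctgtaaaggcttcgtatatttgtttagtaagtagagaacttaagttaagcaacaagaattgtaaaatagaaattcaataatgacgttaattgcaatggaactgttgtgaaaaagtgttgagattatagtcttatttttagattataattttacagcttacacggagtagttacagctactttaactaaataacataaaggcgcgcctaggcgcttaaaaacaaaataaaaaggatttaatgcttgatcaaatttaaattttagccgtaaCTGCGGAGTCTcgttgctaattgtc
rde-1: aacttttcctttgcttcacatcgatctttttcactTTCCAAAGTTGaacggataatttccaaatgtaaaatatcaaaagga
alg-1: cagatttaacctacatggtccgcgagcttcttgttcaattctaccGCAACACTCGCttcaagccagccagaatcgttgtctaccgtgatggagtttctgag
alg-2: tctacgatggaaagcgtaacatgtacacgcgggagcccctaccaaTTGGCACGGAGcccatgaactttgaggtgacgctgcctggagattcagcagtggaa

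These stretches differed in base composition. Guanine and cytosine made up 31% of the 294 bases before rrf-3 and 30.9% of the 81 bases at rde-1, against 48.5% of the 101 bases at alg-1 and 54.5% of the 101 bases at alg-2. Every 31-base word of all 4 stretches occurs once in the genome.

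A region was given to a gene where its summit lay between 500 bp upstream of the annotated 5' end and the 3' end. The pooled list held a region for 7 of the 10 genes, namely ego-1, rrf-2, rrf-3, rde-1, alg-1, alg-2 and prg-1. Among all protein-coding genes the share was 42.8%, and among the 5236 genes within the length range of the 10, 3039 to 9550 bp, it was 55.3%. Both replicate lists held a region for 6 of the 10, all of these but rrf-2, beside 34.7% of all genes and 47.2% of those of like length. A region with a signal above the median in both of the replicates was present at ego-1, rde-1, alg-1 and alg-2, 4 of the 10, beside 21.5% and 28.8%. The consensus list held a region for ego-1 alone, 1 of the 10, beside 4.68% and 5.58%. Since the genes were chosen with these values known, nothing is read from the counts beyond the genes themselves.

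**Figure D1:**
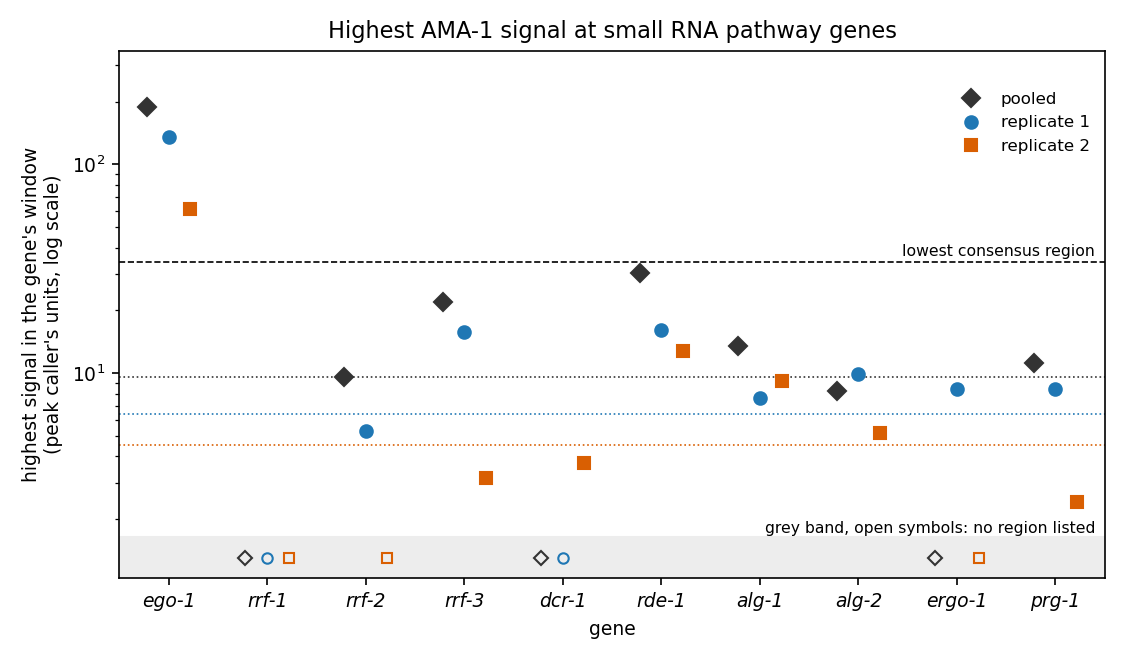
Highest signal of a listed AMA-1 region in the window of each gene (y axis, peak caller's units, log scale), with 1 point each for the pooled list (diamonds), replicate 1 (circles) and replicate 2 (squares); dotted lines are the medians of the 3 lists (9.56, 6.42 and 4.53) and the dashed line is the lowest consensus signal (34.3, a pooled value). ego-1 is the highest gene in all 3 lists, and rrf-1 has no listed region.

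Among the RNA-dependent RNA polymerase genes, ego-1 (WBGene00001214, chromosome I, 7650341 to 7656338, minus strand) stood far above the others. Its highest signal was 189 in the pooled list, 135 in replicate 1 and 61.3 in replicate 2. These are ranks 27, 23 and 34 of 30000, so the 2 replicates place the region within the same small top group. The values are 19.8, 21.1 and 13.5 times the medians of the respective lists. Of all protein-coding genes, 14 had a higher pooled signal, 13 a higher signal in replicate 1 and 21 in replicate 2. The gene has 1 annotated transcript and 1 region in each list, with the summit 390, 402 and 382 bp upstream of the 5' end. The summit is nearer to the 3' end of the neighbour F26A3.4, so its assignment to ego-1 rests on the 500 bp window.

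rrf-3 (chromosome II, 8162465 to 8168651, plus strand) was the next of the polymerase genes. Its highest signal was 21.9 in the pooled list, 15.7 in replicate 1 and 3.14 in replicate 2. The replicates differed here: the value is 2.44 times the median in replicate 1 and 0.693 times the median in replicate 2, at ranks 3362 and 22566. The position was steadier than the signal, with summits 20 bp before the 5' end in the pooled list and 6 and 18 bp after it in the replicates. The pooled summit is the one in capitals in the stretch shown above. It also falls in the window of emb-27, a subunit gene of the anaphase-promoting complex, which is read in the opposite direction and whose 5' end is 275 bp away. The signal cannot be assigned to 1 of the 2 genes.

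rrf-2 (chromosome I, 12098664 to 12106112, minus strand) had 1 region in the pooled list and 4 in replicate 1, and none in replicate 2. Its highest signal was 9.59 in the pooled list, level with the median, and 5.32 in replicate 1, which is 0.83 times the median. Both summits were at the same base, 384 bp upstream of the 5' end. In these 500 bp upstream 62.6% of 31-base words occur once in the genome, although 96.1% do within the pooled region itself. The further regions of replicate 1 were lower, from 3.66 to 4.46, and lay in introns and a coding exon.

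rrf-1 (chromosome I, 7643431 to 7649777, minus strand), which follows ego-1 in the same direction after a gap of 563 bp, had no listed region in any list. The nearest just outside its window was in replicate 1, with a signal of 14.7, and lay 332 bp past the 3' end within ncbp-2, a cap-binding protein gene. In the window of rrf-1, 98.8% of 31-base words occur once in the genome. A gene without a listed region has none among the 30000 of that list, which does not show that the polymerase is absent.

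The Dicer gene dcr-1 (chromosome III, 8071967 to 8080281, minus strand) had a region in replicate 2 alone. Its signal was 3.72, 0.821 times the median, and the summit lay 597 bp into the gene in a coding exon. Just outside the window were summits 576 bp upstream in the pooled list, with a signal of 10.3, and 572 bp upstream in replicate 1, with 7.15. Those lie inside apc-2, a further subunit gene of the anaphase-promoting complex, which is read away from dcr-1 across a gap of 347 bp.

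Of the Argonaute genes, rde-1 (chromosome V, 9987916 to 9991642, minus strand) had the highest signal. It was 30.1 in the pooled list, 16.1 in replicate 1 and 12.8 in replicate 2, or 3.15, 2.51 and 2.81 times the medians. Both replicates were thus well above their medians, while the pooled value fell short of 34.3, the lowest consensus signal. The summits were 313, 312 and 379 bp upstream of the 5' end, beyond the 252 bp gap and 60, 59 and 126 bp inside trpp-6, a gene of the TRAPP trafficking complex read in the opposite direction. Given only to the gene with the nearest 5' end, the region falls to trpp-6. With the window reduced to 250 bp upstream, the highest pooled signal of rde-1 fell to 8. Its other pooled regions, at 608, 827 and 3194 bp into the gene, had signals of 6.79 to 8, all below the median.

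The microRNA Argonaute genes had their highest regions inside the gene, over 500 bp from any annotated 5' end. alg-1 (chromosome X, 13949110 to 13956261, plus strand) had 5 pooled regions, 4 in replicate 1 and 8 in replicate 2, the most of the 10 genes in the pooled list and in replicate 2. Its highest signal was 13.5 in the pooled list, 7.6 in replicate 1 and 9.16 in replicate 2. These lay 4934, 4918 and 3783 bp from the 5' end in coding exons, so the replicates differ in which region is highest. A pooled region near the latter, at 3771 bp, had a signal of 12.5. In replicate 2 a pair of regions at 6567 and 7123 bp, in the 3' untranslated region, had signals of 6.57 and 7.55. alg-1 has 4 annotated 5' ends, and some of its weaker regions lie near an inner one, 422 bp away in the pooled list, 424 and 472 bp in replicate 1 and 283 and 163 bp in replicate 2, with signals of 2.81 to 5.2. Upstream of the outermost end, a region at 302 bp in replicate 2 had 2.33, near the bottom of its list. A pooled region just outside the window, 929 bp upstream, had 9.38, or 0.981 times the median.

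alg-2 (chromosome II, 873212 to 879885, plus strand) had a highest signal of 8.26 in the pooled list, 9.93 in replicate 1 and 5.16 in replicate 2. Pooled and replicate 1 summits were 4 bp apart, at 2000 and 2004 bp in a coding exon, and that of replicate 2 was at 1476 bp in an intron. It is thus above the median in both replicates, at 1.55 and 1.14 times, though not in the pooled list, at 0.863 times, and not at the same place. No region was listed in its 500 bp upstream, where 56.6% of 31-base words occur once in the genome.

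prg-1 (chromosome I, 7585329 to 7588367, minus strand), the Piwi gene, had 1 region in each list. Its signal was 11.2 in the pooled list, 8.37 in replicate 1 and 2.43 in replicate 2. The replicates lay on opposite sides of their medians, at 1.3 and 0.535 times. All summits were in coding exons towards the 3' end, at 2815, 2846 and 2332 bp of a gene of 3039 bp. Just outside the window, each list had a region 212, 230 and 440 bp past the 3' end, with signals of 7.44, 4.78 and 5.16. These lie inside D2030.12, which is read towards prg-1. In replicate 2 the outside region was higher than that of prg-1. ergo-1 (chromosome V, 1008803 to 1018352, plus strand), the longest of the set, had a single region of signal 8.44 in replicate 1, in an intron 8743 bp from the 5' end. Of its 500 bp upstream 55.5% of 31-base words occur once in the genome.

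**Figure D2:**
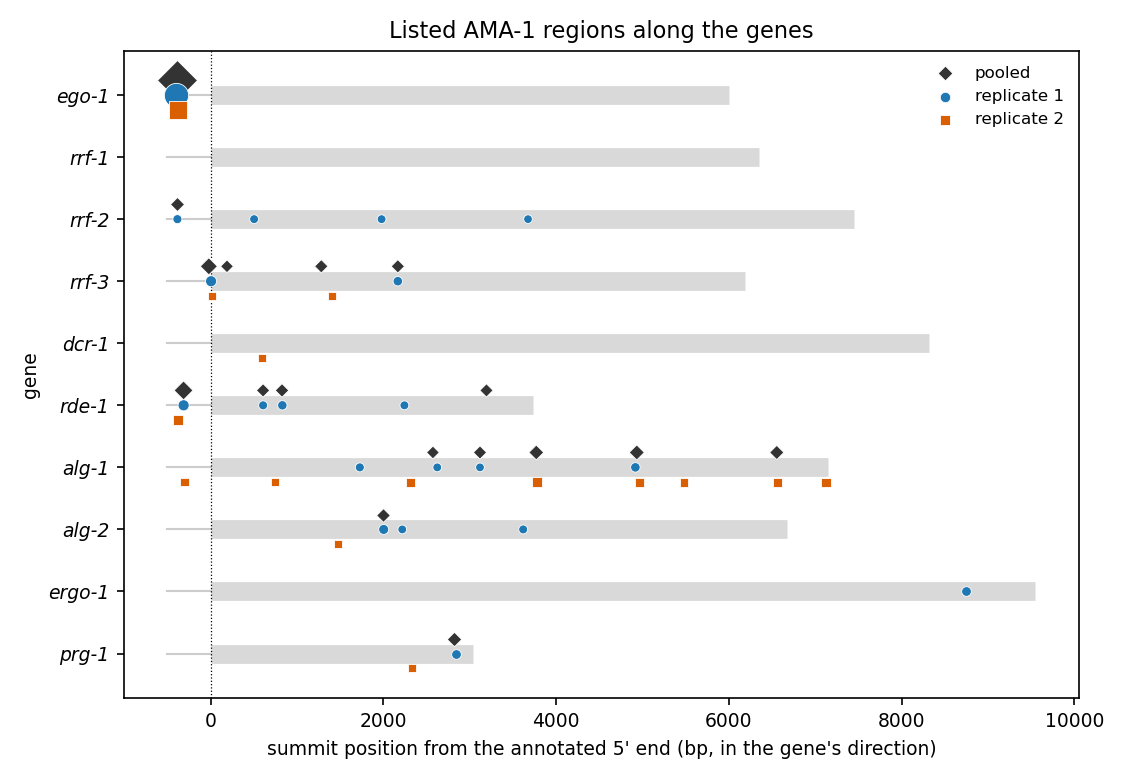
Positions of listed summits along each gene (x axis, bp from the annotated 5' end in the gene's direction), with the gene body as a grey bar, the 500 bp upstream as a thin line, and symbol area growing with signal for the pooled list (diamonds), replicate 1 (circles) and replicate 2 (squares). The regions of ego-1 lie only upstream of the gene, those of alg-1, alg-2 and prg-1 mostly inside it, and rrf-1 has none.

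In the pooled list the order of the levels was ego-1, rde-1, rrf-3, alg-1, prg-1, rrf-2 and alg-2. Both replicates kept ego-1 above rde-1, rde-1 above rrf-3, and prg-1 above rrf-2, which replicate 2 does not list. rrf-3 was above alg-1 in replicate 1 alone and alg-1 above prg-1 in replicate 2 alone, so these neighbours do not differ beyond the spread between replicates. alg-2 was above rrf-2 in both replicates, against the pooled order. Over the 10 genes, with 0 for a gene not listed, the median of the highest signal was 10.4 in the pooled list, 8.4 in replicate 1 and 3.43 in replicate 2. Genes of like length had 6.53, 4.3 and 3.26.

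**Figure D3:**
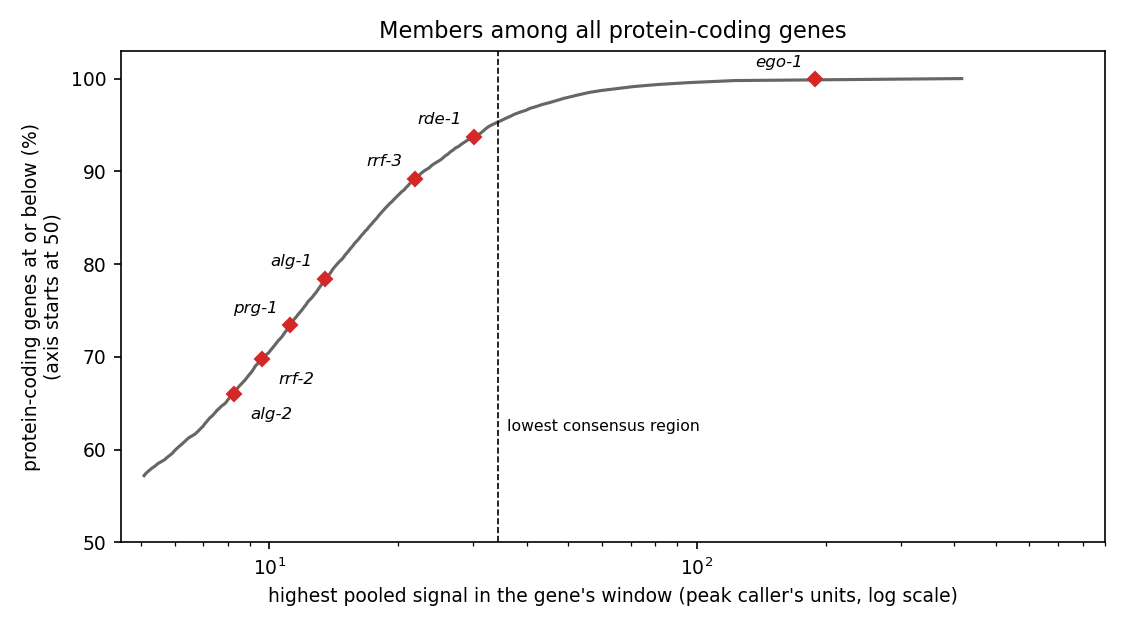
Share of all 19973 protein-coding genes (y axis, percent, starting at 50) whose highest pooled signal is at or below the value on the x axis (peak caller's units, log scale), with the 7 genes that have a pooled region as red diamonds and the lowest consensus signal of 34.3 as a dashed line. ego-1 lies at the top of the curve with 14 genes above it, and the other genes are spread along its rise from 8.26 to 30.1.

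The windows of the 10 genes held 17 pooled regions, 20 of replicate 1 and 15 of replicate 2. Of these, 9, 10 and 7 lay in coding exons, 4, 3 and 3 upstream of the gene, 3, 5 and 1 in introns, and the rest in untranslated regions. Within 500 bp of the outermost 5' end were 5, 4 and 4, and within 500 bp of any annotated 5' end of the gene 6, 7 and 6. No shares by place were taken over all regions or over other genes. Each window holds 500 bp upstream beside a gene of 3039 to 9550 bp, so these counts are not a trait of the set. Those upstream included the highest regions of ego-1 and rde-1 in every list, whereas the coding exons held the highest ones of alg-1 and prg-1. Signals above the median of the list were found in 8, 9 and 6 of them.

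Few of these regions recurred at the same place. Only 4 of the 20 regions of replicate 1 had a summit of replicate 2 within 250 bp, 1 each at ego-1, rrf-3, rde-1 and alg-1, and 4 of the 15 of replicate 2 had 1 of replicate 1. Over the whole lists the shares were 49.1% and 48.9%. Of the 17 pooled regions, 13 lay near a summit of replicate 1, 8 near one of replicate 2, and 5 near both. In the whole pooled list 78% of regions lay near a summit of replicate 1 and 67.8% near one of replicate 2. No such share was taken for regions near both. Where summits recurred, at ego-1 they were 20 bp apart between replicates.

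The surroundings of ego-1 held many strong regions on the upstream side and none over the gene. No list had a region over the 12908 bp from the ego-1 5' end to the rrf-1 3' end, and the next one downstream was 14649, 13239 and 15130 bp away in the pooled list, replicate 1 and replicate 2. In the 6000 bp upstream there were 10, 10 and 11 regions, that of ego-1 among them, and from there to 20000 bp upstream there was none. The ego-1 summit lies in the 639 bp between ego-1 and F26A3.4, which precedes it in the same direction, and is 250, 238 and 258 bp past the F26A3.4 3' end. It is therefore nearer to the end of F26A3.4 than to the start of ego-1, and a window of 250 bp upstream leaves ego-1 with no region. From its position alone the signal cannot be assigned to 1 of the 2 genes.

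Further upstream, the 9437 bp between the 5' ends of F26A3.4 and F26A3.5, which are read away from each other, held 7, 7 and 8 regions. The highest of them in the pooled list, 3017 bp before the ego-1 5' end, had a signal of 61.5 at rank 340, and a region 1918 bp before it within F26A3.4 had 45.7 at rank 712. Both are in the consensus list. The latter has a counterpart of 51.5 in replicate 1, at 1919 bp. The nearest summits of replicate 2 were at 2116 bp with 4.74 and 1245 bp with 18.5. That at 2116 bp is within the 250 bp used above, but it lies closer to another pooled region, at 2119 bp with 21.4. The ego-1 region was 457 bp wide in the pooled list, 234 bp in replicate 1 and 100 bp in replicate 2, where 99.4%, 99.5% and 99.8% of regions have the median width of 340, 340 and 350 bp. Other widths are more common among strong regions, since 88.2% of consensus regions have 340 bp, and the pooled region 1245 bp upstream of ego-1 is 90 bp wide. The piRNA gene 21ur-14981 (7656454 to 7656474) lies in the same gap and does not overlap the region. Of 31-base words in the pooled region, 100% occur once in the genome.

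**Figure D4:**
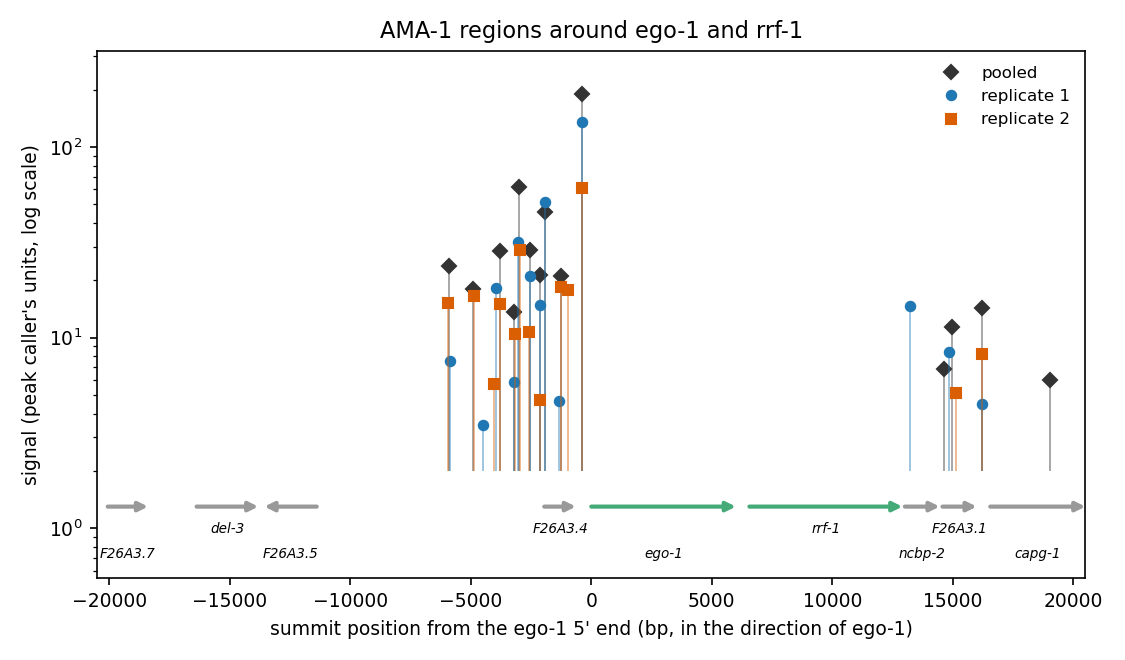
Signal (y axis, peak caller's units, log scale) of each listed region by its distance from the ego-1 5' end (x axis, bp in the direction of ego-1), for the pooled list (diamonds), replicate 1 (circles) and replicate 2 (squares); arrows below show protein-coding genes and their direction, with ego-1 and rrf-1 in green. The pooled value of 189 upstream of ego-1 is the highest, and the bodies of ego-1 and rrf-1 are empty.

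Likeness to ego-1 was measured as the distance in log2 signal of both replicates between the highest regions of each gene, over the 6936 protein-coding genes with a region in both lists. The closest was kel-3, with signals of 191, 136 and 60 in the pooled list, replicate 1 and replicate 2 and a distance of 0.033. Next came cdc-48.1, the gene of an AAA ATPase, with 188, 126 and 60.4 and a distance of 0.0972. The third was gasr-8, with 186, 129 and 65.4 and a distance of 0.111. All 3 have their pooled summit upstream of the 5' end, by 145, 154 and 424 bp. The highest of the other 9 small RNA genes, rde-1, had 30.1, 16.1 and 12.8.

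Other genes of the same pathways were taken from a list of 76, of which 72 matched a protein-coding gene. Of the 72, 46 had a pooled region (63.9%), 41 a region in both replicate lists (56.9%), 26 a region above the median of both (36.1%) and 9 a consensus region (12.5%). The same shares over all genes are those given above, 42.8%, 34.7%, 21.5% and 4.68%. The list was written with results of these data known, and these counts are a description, as are those by role below. Roles hold 4 to 17 genes. The genes run from 597 to 18296 bp, and no share of genes of like length was taken for them.

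Among the partners of Dicer and the ERI proteins, 8 of 9 genes had a pooled region and 2 a consensus region, beside 42.8% and 4.68% of all genes. rde-4, whose protein binds double-stranded RNA beside Dicer, had 50.1 in the pooled list, 29.9 in replicate 1 and 19.6 in replicate 2, in a window shared with cox-14. eri-5, a Tudor domain gene of the ERI complex, had 48.3, 29.5 and 20.1. Both lay above rrf-3 and dcr-1 in all 3 lists. ekl-1, with 23.9 in the pooled list and 24.2 in replicate 1, had no region in replicate 2, and its summit also lies in the window of prpf-4.

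Of the microRNA genes other than the Argonautes, all 8 had a region above the median of both replicates, beside 21.5% of all genes. The highest in the pooled list and in replicate 1 were vig-1, with 59.6, 33 and 30.2, pash-1, the partner of Drosha in microRNA processing, with 40.8, 28.7 and 8.35, and nhl-2 with 31.9, 27.8 and 14.7. vig-1 and pash-1 were in the consensus list, although in replicate 2 pash-1 was below every other gene of the role but tsn-1. The pooled values of all 8, from 14.2 in drsh-1, the Drosha gene, upwards, exceeded those of alg-1 and alg-2, 13.5 and 8.26. In replicate 2 this did not hold for alg-1, whose 9.16 was above drsh-1 with 9.15, xrn-2 with 8.74, pash-1 and tsn-1 with 8.22.

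Of the mutator and RNA interference factors, 15 of 17 had a pooled region and 4 a consensus region, beside 42.8% and 4.68% of all genes. smut-1, an RNA helicase gene, was the highest with 81.1, 58 and 24, its summit 1761 bp into the gene in a coding exon. henn-1, which encodes the methyltransferase of small RNA ends, had 38.2, 21.6 and 14. rde-8, a ribonuclease gene, had 37.1, 25.6 and 13.6 in a window shared with ZC477.3, and mut-15 had 35.3, 24.4 and 10.9 in one shared with fib-1, the fibrillarin gene. Each of these was lower than ego-1 in all 3 lists.

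In nuclear RNA interference and inheritance, 7 of 8 genes had a pooled region, beside 42.8% of all genes. met-2, a histone methyltransferase gene, was in the consensus list with 36, 22.6 and 12.5, followed in the pooled list and replicate 1 by nrde-4 with 19.4, 15.4 and 4.12 and nrde-1 with 16.1, 13.1 and 2.32, the latter in a window shared with alkb-8. In replicate 2, znfx-1 with 5.45, set-25 with 5.23 and nrde-2 with 4.8 were above nrde-4, and nrde-1 was the lowest listed. Transport of double-stranded RNA had pooled regions at sid-5, with 15.1, and sid-3, with 7.81, 2 of 4 genes beside the same 42.8%.

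Of the remaining roles, other Argonautes had a pooled region at 20% of genes and piRNA production at 27.3%, beside 42.8% of all genes. Of 15 other Argonaute genes, 3 had a pooled region, ppw-1 with 9.71, ppw-2 with 6.01 and vsra-1 with 5.43, and 12 had none. Of 11 genes of piRNA production, 3 had one, erh-2 with 13.6, tofu-5 with 10.5 and tost-1 with 7.67, the last 2 in windows shared with nuo-6 and arx-6. Neither role had a consensus region, beside 4.68% of all genes. The pooled value of prg-1, 11.2, was above those of the other Argonaute role, whose highest was 9.71. It was within the range of the piRNA production genes with a pooled region, 7.67 to 13.6.

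**Figure D5:**
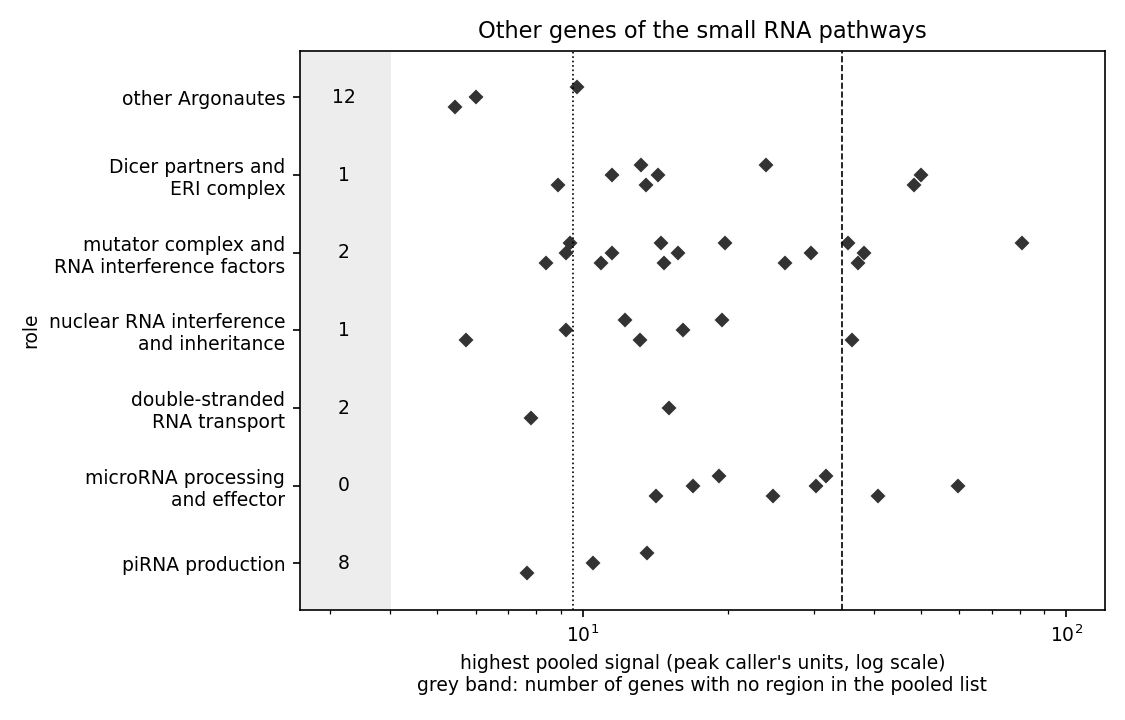
Highest pooled signal (x axis, peak caller's units, log scale) of each of the 72 other small RNA pathway genes by role (y axis), with genes without a pooled region counted in the grey band, the pooled median of 9.56 dotted and the lowest consensus signal of 34.3 dashed. All 8 microRNA genes lie above the median, while 12 of the 15 other Argonaute genes have no pooled region, as have 57.2% of all protein-coding genes.

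Several of the 10 genes are best known from the germline, which in L1 larvae is a small part of the animal. In whole larvae, fewer cells of a type and less polymerase per cell cannot be told apart. Of 15 germline marker genes none had a consensus region or a region above the median of both replicates, beside 4.68% and 21.5% of all protein-coding genes. A pooled region was present at 3 of the markers, gld-1, oma-1 and oma-2, beside 42.8% of all genes. Their signals were 8.68 to 9.26, all below the pooled median, and the other 12 markers had none. In replicate 1, gld-1 with 10.7 and oma-1 with 8.24 were above the median of 6.42, and replicate 2 listed neither. Of the 12, puf-5 had a region in replicate 1 with 4.3, and mex-3 had regions in both replicates with 3.4 and 2.77, all below the medians. Whether the germline markers are active in the germline of L1 larvae was not tested. Their values therefore do not show how well germline signal is seen in whole larvae. Of the 6 vitellogenin genes, markers of the adult intestine, none had a region in any list. Among all protein-coding genes 57.2% had none in the pooled list, 57.4% none in replicate 1 and 55.2% none in replicate 2. Which cells the signal upstream of ego-1 came from was not tested.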

How the data were processed

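AMA-1 ChIP-seq of whole L1 larvae was used in 2 biological replicates, which formed 1 group. Per the submitters' notes, regions were derived from each replicate's alignments with a control, from the pooled alignments, and by an irreproducible discovery rate (IDR) analysis. For the caller, versions, IDR threshold and depth, nothing is given in the sources used here. Lists on build ce10 were not analysed. The deposited signal is the value the authors' caller gave each region, taken without rescaling. The deposited −log10 q-value served for 1 alternative. The labels give a size range of 150 to 350 with no unit.

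Genes came from Ensembl release 115 on WBcel235 (ce11), without the mitochondrial genes. Summits were joined to windows with Python 3.11.15, numpy 2.4.6 and pandas 2.3.3, figures drawn with matplotlib 3.10.9. The join was tested on simulated regions. The members, lists and thresholds were chosen with earlier results of these data known, so no test was made. Named are all members, pathway genes in the consensus list or among the 3 highest of a role, genes sharing a member's region, and the 3 genes likest to ego-1; other genes named as neighbours, as examples of a role, or among the markers were chosen after their values were seen. The 4 unmatched pathway genes are pseudogenes in the RefSeq table. No paired fit exists with 1 group.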

Additional observations from a re-analysis of the deposited data

How the results depend on the processing

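Of the recomputed counts 31 stayed within 1.5 times the reported one and 9 did not. With 250 bp upstream, members with a consensus region fell from 1 to 0, since ego-1 lost its region, and those above the median of both replicates from 4 to 2, alg-1 and alg-2. The shares of all genes fell from 4.68% to 3.81% and from 21.5% to 19%. Counting only summits within 500 bp of the 5' end gave 2, ego-1 and rde-1, as did the upper quartile in place of the median, and left 3 of 6 members in both lists. Over all genes the summits near the 5' end gave 13.7% and the quartile 11.9%, beside 21.5%. For both lists the share of all genes fell from 34.7% to 22.9%. Without 1 replicate, the members above the median ranged from 4 to 7. The 7 came without replicate 2 and added rrf-3, ergo-1 and prg-1. The shares of all genes were 29.6% without replicate 1 and 30.4% without replicate 2, beside 21.5% with both. With 1000 bp upstream or any overlap of the interval, dcr-1 joined the members in both lists, which made 7. Giving each summit only to the nearest 5' end removed rde-1 from that count, which made 5, and from the one above the median, which made 3. The shares of all genes in both lists were 37.4% with 1000 bp, 37.5% with overlap and 32.5% with the nearest 5' end, beside 34.7%. Above the median the nearest 5' end gave 19.4% of all genes.

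Pathway genes in the consensus list fell from 9 to 4 (rde-4, eri-5, smut-1 and vig-1) among consensus regions above their own median. The share of all genes fell from 4.68% to 2.35%. With 1 replicate left out, the 1328 regions of highest signal in the other replicate's list stood in for the consensus list. This gave 4 pathway genes without replicate 1 and 9 without replicate 2, beside 4.23% and 4.62% of all genes. These 9 lack henn-1 and met-2 and hold ekl-1 and nhl-2 in their place. Those above the median of both replicates numbered 26, against 30 without replicate 1 and 40 without replicate 2. The share of all genes was 21.5% with both, 29.6% without replicate 1 and 30.4% without replicate 2. Requiring 1 list in place of 2 admits more genes.

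Depth is unknown here, a list stops at 30000 regions, and the replicates give no more than a pair of values per gene, so small differences between members cannot be judged. No paired analysis was possible because the samples form a single group.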
